A study of Mus musculus with 90 samples.

Results

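CC chemokine ligands are small secreted proteins that draw leukocytes towards a site, and their RNA was followed here in mouse bone marrow-derived macrophages (BMMs) with and without the transcription factor IRF8. The 10 genes described are Ccl2, Ccl3, Ccl4, Ccl5, Ccl6, Ccl7, Ccl8, Ccl9, Ccl12 and Ccl22, taken by name, all 10 found among the 24543 genes of the deposited table. In cells without Irf8, before the osteoclast-forming cytokine RANKL was added, Ccl2, Ccl7, Ccl12, Ccl3, Ccl4 and Ccl9 were higher and Ccl5 was lower than in cells with it. At day 4 of RANKL, Ccl3, Ccl4, Ccl5 and Ccl6 were lower in cells without Irf8, of which Ccl6 alone passed when only the day 4 libraries were fitted. Human IRF8 put back into Irf8-deficient cells went with higher Ccl2, Ccl7, Ccl12, Ccl8 and Ccl22 and lower Ccl3 and Ccl4 on every day of the osteoclast cultures, although some of these calls depended on the fit (Ccl3 and Ccl4 at day 0, Ccl22 and Ccl4 at day 8) and the day 4 libraries differ in column-name prefix. In macrophages given interferon-gamma, Ccl8 was 30.7-fold higher with human IRF8 than in cells labelled mock, with 2 libraries per group. Reads on Irf8 do not check the mock label there, at 165 and 160 RPKM in mock and 189 and 188 with human IRF8.

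The CC family is named for a pair of adjacent cysteines near the start of the mature protein, and its members signal through seven-helix receptors on leukocytes. Ccl2, Ccl7, Ccl12 and Ccl8 are the monocyte chemoattractant proteins, and Ccl2, Ccl7 and Ccl12 act on Ccr2, the receptor that lets inflammatory monocytes leave the marrow. Ccl3, Ccl4 and Ccl5 are inflammatory chemokines of macrophages and T cells, and Ccl3 and Ccl5 bind Ccr1. Ccl6 and Ccl9 are rodent ligands of Ccr1, and Ccl9 is a chemokine of mouse osteoclasts that is made in response to RANKL. Ccl22 binds Ccr4 on regulatory and helper T cells. IRF8 belongs to the interferon regulatory factors, binds DNA together with partners such as PU.1, drives macrophage genes and restrains osteoclast formation.

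RNA-seq gave 90 libraries in 38 groups, 24 groups of 2 and 14 of 3, from mice of both sexes. In the osteoclast cultures, Irf8+/+ (IRF8WT) and Irf8-/- (IRF8KO) BMMs were taken with MCSF at day 0 and with MCSF plus RANKL at days 4 and 8, with 3 libraries per group except 2 for IRF8WT at day 4. In a second set of osteoclast cultures, Irf8-/- BMMs carried human IRF8 (hIRF8WT), an altered form named hIRF8G388S, an altered form named hIRF8379-389, or were labelled mock, with 3 libraries per group except 2 at day 8 for mock, hIRF8WT and hIRF8G388S. In the macrophage set, cells labelled with the same 4 names were untreated, given interferon-gamma (IFNg), or given IFNg with bacterial lipopolysaccharide (LPS) for 1, 4 or 8 h, with 2 libraries per group. The labels do not say which libraries came from separate animals or cultures, so p-values measure only the spread between libraries. They tell neither what mock cells received nor what change hIRF8379-389 carries, and they state the Irf8-/- origin of transduced cells for the osteoclast cultures.

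Irf8 itself, on mm10 at chr8:120736358-120756694 on the plus strand, was at 69.1 to 74.0 RPKM, a read count scaled by transcript length and by the size of the library, in IRF8WT at day 0 and at 32.5 to 34.2 in IRF8KO. It was at 18.3 to 24.0 RPKM in mock cells of the osteoclast set at day 0 and at 47.4 to 73.6 with hIRF8WT, and reads of a human construct that align to the mouse gene would be counted there. In mock macrophages Irf8 was at 68.5 to 77.5 RPKM untreated, above the 59.5 to 64.1 RPKM of the constructs apart from the shallow library at 146, and at 160 to 165 with IFNg against 188 to 210, so reads on this gene do not check the mock label in that experiment. Summed macrophage markers (Adgre1, Csf1r, Mertk, Cd68 and Fcgr1) lay between 620.5 and 2614 RPKM in all groups, and summed osteoclast markers rose from 19.99 to 29.8 RPKM in both genotypes at day 0 to 17430 to 47630 at day 4. Libraries held 15.6 to 122 M alignments, apart from hIRF8WT untreated macrophage replicate 1 with 0.218 M. That library listed 1711 of 11237 tested genes at 0, against 134 in its partner, and resembled the IFNg groups (Pearson r 0.910 to 0.917 across genes) more than its partner (0.867). Counts of passing members in macrophages are therefore given with and without it. Where it is left out, hIRF8WT untreated is 1 library, assumed to vary like the other groups. In these bulk cultures, fewer cells of a type and less RNA per cell cannot be told apart.

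All 10 genes are protein coding, and 9 of them lie on chromosome 11 of mm10. Ccl2 (chr11:82035571-82037453), Ccl7 (chr11:82045712-82047525), Ccl12 (chr11:82101845-82103400) and Ccl8 (chr11:82115185-82116799) lie in that order on the plus strand. Ccl5 (chr11:83525778-83530518), Ccl9 (chr11:83572919-83578636), Ccl6 (chr11:83587882-83593087) and Ccl3 (chr11:83647844-83649355) lie on the minus strand, and Ccl4 (chr11:83662584-83664683) beside them on the plus strand. Ccl22 lies alone on chr8:94745590-94751699, plus strand. The 250 bases before the start site, from RefSeq on GRCm38.p6, were found for 6 of the 10 genes. They are printed for Ccl8, the member with the largest difference between hIRF8WT and mock macrophages, for its neighbour Ccl12, and for Ccl9, the osteoclast chemokine. Capitals mark the matches to 5 motifs searched on both strands.

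Ccl8 (chr11:82114935-82115184, plus strand): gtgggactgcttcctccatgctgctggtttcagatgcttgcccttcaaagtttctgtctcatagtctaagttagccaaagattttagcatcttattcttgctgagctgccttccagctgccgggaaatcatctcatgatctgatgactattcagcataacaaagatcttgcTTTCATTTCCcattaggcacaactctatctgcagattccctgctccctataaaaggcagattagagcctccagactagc
Ccl12 (chr11:82101595-82101844, plus strand): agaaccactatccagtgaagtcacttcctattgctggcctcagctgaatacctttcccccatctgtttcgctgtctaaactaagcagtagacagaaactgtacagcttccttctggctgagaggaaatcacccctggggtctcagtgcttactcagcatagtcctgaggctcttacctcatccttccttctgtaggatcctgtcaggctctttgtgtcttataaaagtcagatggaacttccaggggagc
Ccl9 (chr11:83578637-83578886, minus strand): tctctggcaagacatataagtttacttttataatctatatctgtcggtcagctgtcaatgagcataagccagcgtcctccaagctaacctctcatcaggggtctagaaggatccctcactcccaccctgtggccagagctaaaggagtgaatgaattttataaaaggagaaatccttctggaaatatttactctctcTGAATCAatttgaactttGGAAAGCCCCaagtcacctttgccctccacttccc

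The Ccl8 match is GGAA, any pair of bases and then GAAA, a composite that ETS factors and IRFs can share, read on the opposite strand 79 to 70 bases before the start. This string was found in 2.3% of 32851 promoters of that length. In the Ccl9 window, TGANTCA (an AP-1 string, 6.75% of promoters) stood 53 to 47 bases before the start and an NF-kB string (7.25%) 35 to 26 bases before it. The strings GAAA, any pair of bases and GGAA (2.3%), and GAAA, any pair and GAAA (2.98%), had no match in the 6 windows. A match describes letters only, and binding was not measured.

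Levels of the 10 genes spanned a wide range, and the order of groups differed from gene to gene. Ccl5 had the highest group mean of all, 16410 RPKM in mock macrophages after 8 h of LPS, and was listed at 0 in all 3 IRF8KO libraries at day 8. Ccl3 and Ccl4 were highest in hIRF8WT macrophages at 4 h of LPS, with means of 10620 and 6527 RPKM. Ccl2 and Ccl7, the monocyte attractants, were instead highest in day 0 osteoclast cultures carrying altered IRF8, with means of 771 RPKM (hIRF8G388S) and 373 RPKM (hIRF8379-389). Ccl6 peaked in untreated mock macrophages at 194 RPKM and Ccl9 in mock macrophages at 8 h of LPS at 651 RPKM, and both were at 1 RPKM or more in all 90 libraries. Ccl22 never exceeded a group mean of 9.69 RPKM, and Ccl8 was listed at 0 in 20 libraries, all of them osteoclast cultures.

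Ccl2 was at 4.01, 4.32 and 4.10 RPKM in the IRF8WT libraries at day 0 and at 265, 248 and 263 RPKM in the IRF8KO libraries. Its IRF8KO values were all far above those of IRF8WT, with a log2 fold change of 5.66 ± 0.29 (SE; limma with Benjamini-Hochberg adjustment over all genes, adjusted p = 4.68e-10). Ccl7, which shares the receptor Ccr2, was at 2.05, 1.40 and 1.08 RPKM in IRF8WT and at 90.5, 71.4 and 81.8 in IRF8KO (5.04 ± 0.40, limma adjusted p = 6.75e-08). Ccl12, another Ccr2 ligand, was at 0.475, 0.941 and 0.582 RPKM in IRF8WT and at 10.7, 8.90 and 8.75 in IRF8KO (2.66 ± 0.25, limma adjusted p = 4.25e-07). The groups did not overlap for these 3 genes. On the log2(RPKM + 1) scale used for every fold change here, the change of genes near 1 RPKM is understated.

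Of the inflammatory chemokines Ccl3, Ccl4 and Ccl5, 2 were higher and 1 lower in IRF8KO at day 0. Ccl3 was at 31.4, 30.9 and 29.5 RPKM in IRF8WT and at 112, 98.9 and 102 in IRF8KO (1.74 ± 0.22, limma adjusted p = 1.09e-05). Ccl4 was at 9.08, 7.02 and 7.02 RPKM against 65.7, 56.8 and 62.6 (2.85 ± 0.31, limma adjusted p = 2.03e-06). Both were higher in every IRF8KO library. Ccl5, in contrast, was at 5.06, 5.09 and 4.86 RPKM in IRF8WT and at 0.0446, 0.720 and 0.345 in IRF8KO, lower in all 3 (-2.16 ± 0.26, limma adjusted p = 6.32e-06). Ccl9 was at 115 to 120 RPKM in IRF8WT and at 248 to 263 in IRF8KO (1.10 ± 0.15, adjusted p = 3.22e-05). Ccl6 was at 114 to 115 RPKM in IRF8WT and at 103 to 109 in IRF8KO and did not pass (-0.12 ± 0.12, adjusted p = 0.494). Ccl8 and Ccl22 stayed under 1 RPKM in all 17 libraries of this experiment and were not tested.

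In all, 7 of 8 tested members passed at day 0, 6 higher and 1 lower, where 40.2% of all genes passed (26.5% higher and 13.7% lower; 3058 and 1580 genes, or 2254 and 2322 with median-of-ratios scaling). The median log2 fold change was 2.20 over the 8 members and 0.12 over all genes. Summed neutrophil markers also differed between the genotypes at day 0, at 14.9 to 21.1 RPKM in IRF8WT and 192 to 204 in IRF8KO, mostly S100a8 and S100a9, while Mpo stayed at or under 1.12 RPKM. Summed macrophage markers were at 2494 to 2570 RPKM in IRF8WT and 1572 to 1585 in IRF8KO. The part of either in the chemokine differences was not tested.

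**Figure D1:**
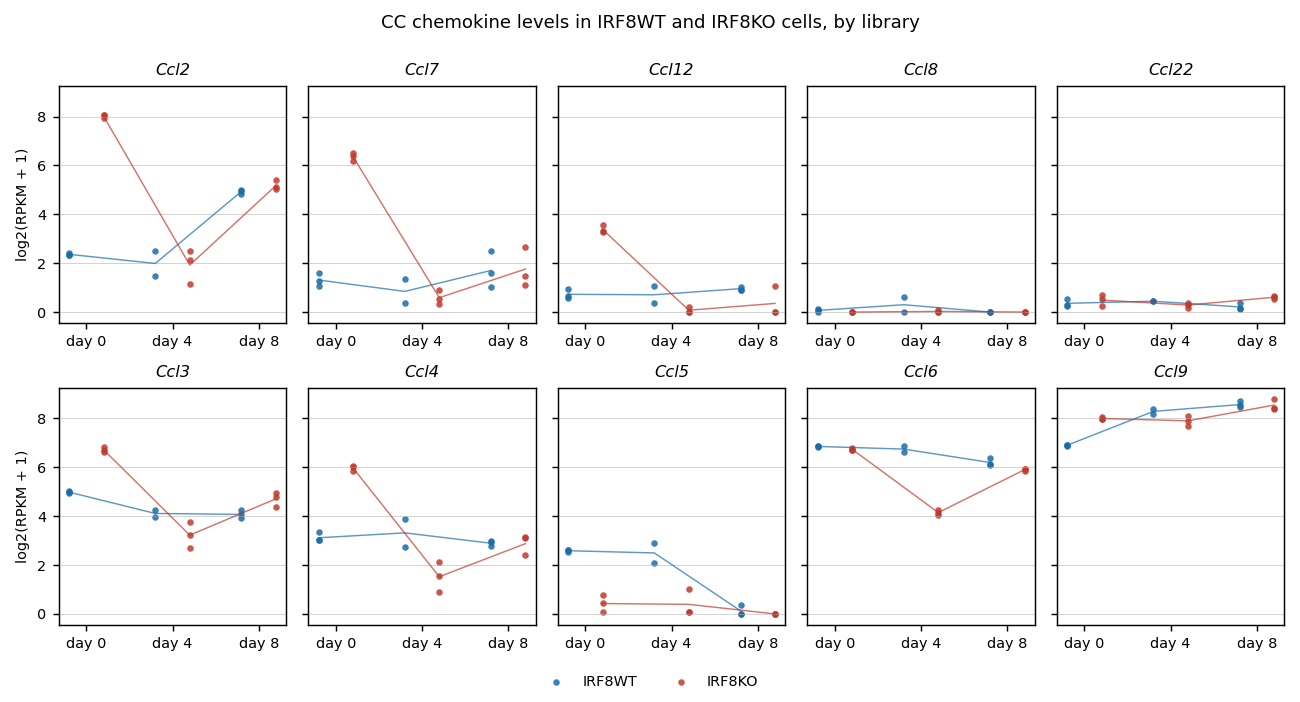
Level of each CC chemokine as log2(RPKM + 1) in the IRF8WT (blue) and IRF8KO (red) libraries at days 0, 4 and 8 of RANKL, 1 point per library and a line through group means. Ccl2, Ccl7, Ccl12, Ccl3, Ccl4 and Ccl9 lie higher in IRF8KO at day 0, and Ccl6 lies lower in IRF8KO at day 4, at 15.7 to 18.2 RPKM against 97.99 and 115.

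At day 4 of RANKL the largest genotype difference was that of Ccl6, a Ccr1 ligand. It was at 115 and 97.99 RPKM in IRF8WT and at 16.3, 15.7 and 18.2 RPKM in IRF8KO. The groups were far apart, and Ccl6 was 6.05-fold lower in IRF8KO (-2.60 ± 0.14, limma adjusted p = 1.13e-08). Ccl5 was lower as well, at 3.23 and 6.50 RPKM in IRF8WT and 0.0531, 0.0534 and 1.03 in IRF8KO (-2.10 ± 0.29, limma adjusted p = 0.000108). Ccl4 was at 5.70 and 13.8 against 1.92, 0.858 and 3.35 RPKM (-1.79 ± 0.34, adjusted p = 0.00203), and Ccl3 at 14.6 and 18.1 against 8.36, 5.49 and 12.4 (-0.89 ± 0.24, adjusted p = 0.0239). The groups did not overlap for these 4 genes, 4 of 8 tested members passed and all 4 were lower, where 13.4% of all genes passed (3.06% higher and 10.3% lower, 353 and 1192 genes, or 897 and 1038 scaled). Ccl2 was at 1.75 and 4.73 RPKM in IRF8WT and at 3.32, 1.23 and 4.66 in IRF8KO (-0.06 ± 0.32, adjusted p = 0.937), so the groups overlapped. When only the day 4 libraries were fitted, 1 of the 4 calls, that of Ccl6, remained. Same-numbered libraries of both genotypes deviated alike from their group means at day 4 (r 0.871 to 0.899 across genes), and the main fit did not pair them. Summed osteoclast markers were higher in IRF8KO at day 4, at 31880 to 47630 against 17430 to 17840 RPKM, and their part in these differences was not tested.

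The change from day 0 to day 4 was more negative in IRF8KO than in IRF8WT cells for most members. From day 0 to day 4, 6 of 8 tested members fell in IRF8KO, where 57.9% of all genes passed (13.6% higher and 44.2% lower, 1573 and 5099 genes, or 2750 and 2893 scaled): Ccl2 by 68.4-fold (-6.10 ± 0.29), Ccl7 by 54.4-fold (-5.77 ± 0.40), Ccl4 by 21.8-fold (-4.45 ± 0.31), and Ccl3, Ccl12 and Ccl6 by 11.3-, 9.89- and 6.02-fold. In IRF8WT over the same days, 2 of 8 passed (43.2% of all genes, 17.6% higher and 25.6% lower): Ccl9, the osteoclast chemokine, rose from 115 to 120 RPKM to 292 and 330 (1.38 ± 0.17, limma adjusted p = 2.37e-05), and Ccl3 fell from 29.5 to 31.4 RPKM to 14.6 and 18.1 (-0.87 ± 0.24, adjusted p = 0.011). Ccl9 in IRF8KO was at 207, 235 and 276 RPKM at day 4 against 248 to 263 at day 0 and did not pass (-0.10 ± 0.15, adjusted p = 0.617). With a trend of level on gene length subtracted, 7 of 8 members passed in IRF8WT. The share of all genes was not computed for that fit, so its count does not tell the members from other genes. Summed neutrophil markers in IRF8KO went from 192 to 204 RPKM at day 0 to 7.35 to 19.3 at day 4, and their part was not tested. The difference between genotypes in the change from day 0 to day 4 was tested by an interaction, which passed for 7 of 8 members, all more negative in IRF8KO, where 27.6% of all genes passed (5.85% higher and 21.7% lower, 675 and 2507 genes, or 1480 and 1560 scaled). It was largest for Ccl2 (-5.72 ± 0.43, adjusted p = 1.24e-07) and Ccl7 (-5.30 ± 0.60, adjusted p = 8.54e-06), and Ccl5 did not pass (0.06 ± 0.39, adjusted p = 0.939).

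Ccl2 rose again between days 4 and 8 in both genotypes, reaching 29.7 ± 1.65 RPKM in IRF8WT (SD, n = 3; 7.73-fold, adjusted p = 7.67e-06) and 35.4 ± 4.66 in IRF8KO (SD, n = 3; 9.54-fold, adjusted p = 1.14e-06). In IRF8KO, 6 of 8 members rose over these days (31.6% of all genes passed, 22.6% higher and 9% lower, 2604 and 1038 genes, or 1646 and 2283 scaled). Ccl6 reached 56.8 to 59.99 RPKM and Ccl3 19.9 to 29.97, both below their day 0 levels. In IRF8WT, Ccl2 rose while Ccl5, at 0, 0 and 0.301 RPKM by day 8, and Ccl6, at 67.7 to 81.2, fell, 3 of 8 in all (23% of all genes, 16.2% higher and 6.79% lower). At day 8, Ccl3 alone passed between the genotypes, 1 of 8 where 31.2% of all genes did (8.62% higher and 22.6% lower), at 13.97 to 17.8 RPKM in IRF8WT and 19.9 to 29.97 in IRF8KO (0.64 ± 0.22, adjusted p = 0.038). Leaving out IRF8KO or IRF8WT libraries singly gave 0 or 1 passing members at day 8. A pseudocount of 0.1 or no filter gave 2, and subtracting the length trend gave 4. The share of all genes was not computed for these fits. The groups did not overlap for Ccl2, Ccl3, Ccl6 and Ccl22. Summed stromal markers were at 95.8 to 621 RPKM in IRF8WT at day 8 and 1.51 to 17.8 in IRF8KO, and their part was not tested.

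Putting human IRF8 into Irf8-deficient cells was also followed by higher Ccr2 ligands. At day 0, Ccl2 was at 215, 211 and 174 RPKM in mock and at 651, 597 and 717 with hIRF8WT (1.71 ± 0.17, limma adjusted p = 1.12e-09). Ccl12 was at 9.98, 10.5 and 7.54 RPKM against 69.6, 55.1 and 61.3 (2.61 ± 0.19, limma adjusted p = 4.21e-12), and Ccl7 at 129 to 171 against 268 to 395 RPKM (1.16 ± 0.14). These 3 genes were therefore higher in IRF8KO than IRF8WT in the first experiment and higher with hIRF8WT than with mock in the second, 2 comparisons on different libraries. Ccl8, whose mouse protein acts on Ccr8, was listed at 0 in all 3 mock libraries and at 1.48 to 1.60 RPKM with hIRF8WT. Ccl22, the Ccr4 ligand, was at 0.222, 1.13 and 1.93 RPKM in mock and 3.82 to 4.63 with hIRF8WT (1.40 ± 0.19, adjusted p = 2.57e-07).

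Ccl3, Ccl4 and Ccl5 went the other way at day 0. Ccl3 was at 139, 135 and 114 RPKM in mock and at 77.1, 43.6 and 60.2 with hIRF8WT (-1.12 ± 0.18, limma adjusted p = 3.66e-06). Ccl4 was at 81.2 to 157 RPKM in mock and 44.4 to 69.2 with hIRF8WT (-0.96 ± 0.20), and Ccl5 at 50.7 to 89.7 and 17.6 to 37.6 (-1.35 ± 0.27). Neither group overlapped the other for any of the 3. With Ccl9, 1.25-fold lower, 9 of 10 members passed, 5 higher and 4 lower, where 74.7% of all genes passed (48.1% higher and 26.6% lower, 5476 and 3022 genes, or 4220 and 4166 scaled), so the share that passed was not far from that of all genes. The calls of Ccl3, Ccl4, Ccl5 and Ccl9 at day 0 were lost when a trend of level on gene length was subtracted. Summed neutrophil markers were at 966 to 1316 RPKM in mock and 332 to 510 with hIRF8WT, mostly S100a8 and S100a9, and their part was not tested.

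At day 8, 8 of 10 members passed, 6 higher and 2 lower, where 30.6% of all genes passed (14.6% higher and 16% lower). Ccl12 was at 4.20 and 2.94 RPKM in mock and 26.1 and 36.01 with hIRF8WT (2.81 ± 0.23, limma adjusted p = 3.24e-10). Ccl2 was at 36.1 and 38.3 against 204 and 211 RPKM (2.45 ± 0.20), Ccl7 at 8.75 and 7.17 against 42.7 and 48.6 (2.38 ± 0.18) and Ccl8 at 0.0473 and 0 against 2.167 and 3.676 (1.91 ± 0.19). Ccl6 was at 32.3 and 31.1 RPKM in mock and 75.0 and 79.2 with hIRF8WT (1.26 ± 0.12, adjusted p = 7.15e-09). Ccl3 fell from 39.2 and 29.1 RPKM in mock to 8.08 and 8.39 (-1.91 ± 0.22, adjusted p = 1.23e-07). Ccl5 and Ccl9 did not pass at day 8. Summed osteoclast markers were at 6615 to 8399 RPKM in mock and 3282 to 3539 with hIRF8WT, and summed macrophage markers at 1220 to 1269 and 785 to 794, and their part was not tested. Leaving out single libraries gave 6 or 7 passing members, with Ccl22 and Ccl4 the calls that were lost.

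The day 4 libraries of hIRF8WT carry a column-name prefix that no other osteoclast library has, so construct and prefix cannot be told apart in any comparison with that group. Against mock at day 4, hIRF8WT differed for 10 of 10 members, 6 higher and 4 lower (47.5% of all genes, 23.8% higher and 23.7% lower). The altered constructs share the prefix of mock at day 4, and each differed from mock for 7 of 10 members, 6 higher and 1 lower, where 26.3% (hIRF8G388S) and 30% (hIRF8379-389) of all genes passed, 13.6% and 13.3% higher, 12.7% and 16.7% lower. Ccl2 was at 20.3, 16.3 and 15.5 RPKM in mock, at 220, 250 and 273 with hIRF8G388S (3.76 ± 0.17, limma adjusted p = 8.76e-16) and at 218, 222 and 201 with hIRF8379-389 (3.55 ± 0.17, limma adjusted p = 2.82e-15). Ccl7 was at 2.30 to 3.13 RPKM in mock and at 42.9 to 59.1 and 46.6 to 59.9 with the altered forms, 14.01- and 14.14-fold higher. Ccl12 was 15.2- and 16.9-fold higher, Ccl22 5.53- and 4.44-fold, Ccl8 3.77- and 4.80-fold, and Ccl6 2.35- and 2.60-fold. Ccl3 was at 30.4 to 38.9 RPKM in mock and at 9.55 to 12.0 and 10.6 to 12.5 with the altered forms, 2.97- and 2.89-fold lower. These comparisons share the mock libraries.

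**Figure D2:**
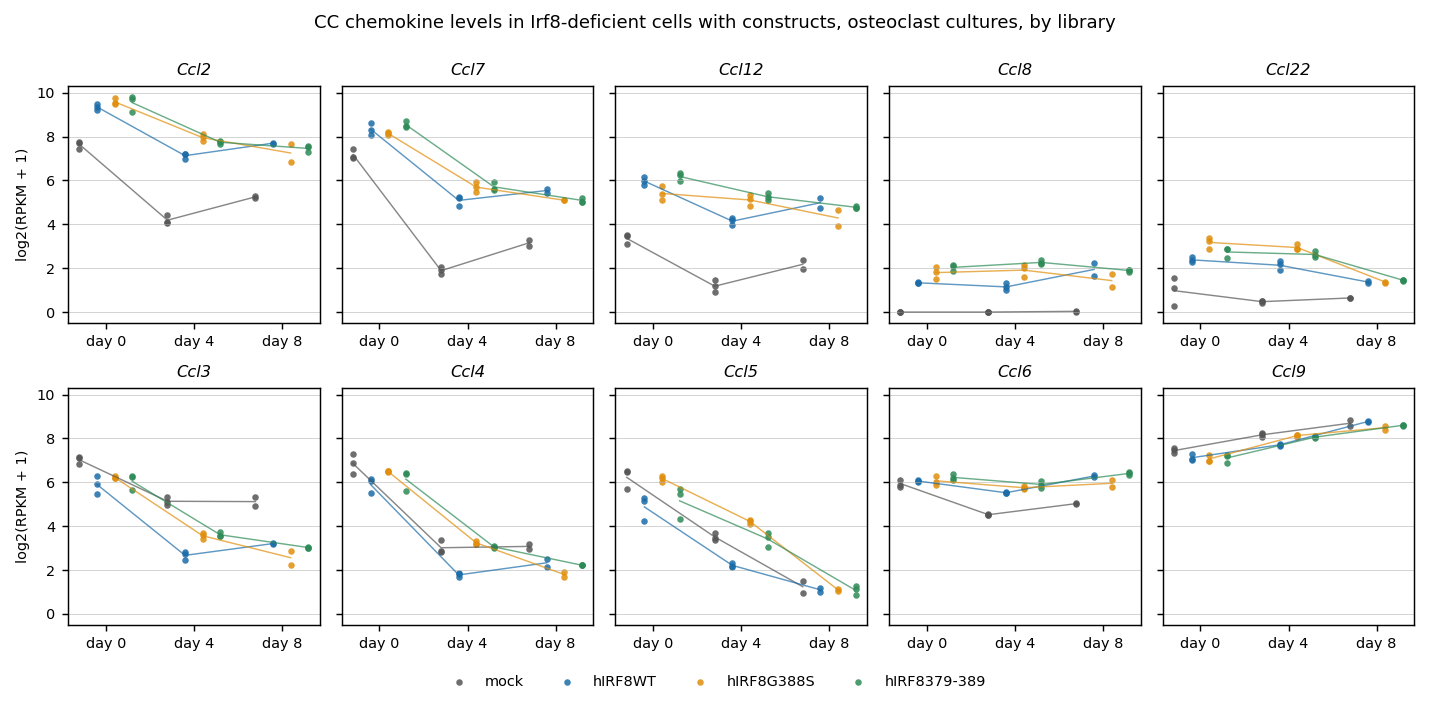
Level of each CC chemokine as log2(RPKM + 1) in osteoclast cultures of Irf8-deficient cells with mock (grey), hIRF8WT (blue), hIRF8G388S (orange) or hIRF8379-389 (green), 1 point per library and a line through group means. The 3 constructs lie above mock for Ccl2, Ccl7, Ccl12, Ccl8 and Ccl22, with Ccl2 at day 8 at 36.1 and 38.3 RPKM in mock and 114 to 211 with a construct. At day 4 hIRF8WT lies below both altered forms for these genes, with Ccl12 at 14.79 to 18.42 RPKM against 27.44 to 42.55. Its day 4 libraries carry a column-name prefix of their own, which cannot be told apart from the construct.

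The altered forms were compared with hIRF8WT on each day. At day 0, hIRF8379-389 differed from hIRF8WT for 0 of 10 members by limma with Benjamini-Hochberg adjustment, where 0.0176% of all genes passed, and 1 member, Ccl8, had an unadjusted p under 0.05. Its Ccl2 libraries were at 846, 899 and 550 RPKM against 651, 597 and 717, a log2 fold change of 0.20 ± 0.17. At day 0, hIRF8G388S differed for 2 of 10 members, where 0.765% of all genes passed (0.624% higher): Ccl5 was at 72.5, 63.8 and 78.3 RPKM against 34.5, 17.6 and 37.6 (1.30 ± 0.27, adjusted p = 0.017), and Ccl22 at 6.41, 8.55 and 9.42 against 3.82, 4.21 and 4.63 (0.80 ± 0.19, adjusted p = 0.0425). The groups did not overlap for either gene, and 0 members passed when only those libraries were fitted. At day 8, 0 of 10 members passed for either form in limma, with 8 members under an unadjusted p of 0.05 for hIRF8G388S and 1 for hIRF8379-389, where 1.73% (1.5% higher) and 3.78% of all genes passed. With only the compared groups fitted, 3 and 4 members passed at day 8, and the groups did not overlap for 7 and 6. The share of all genes was not computed for these counts, so they do not tell the members from other genes. At day 4, 9 and 10 of 10 members were higher with hIRF8G388S and hIRF8379-389 than with hIRF8WT (27.7% and 32.2% of all genes, 13.7% and 12.8% higher), which cannot be told apart from the prefix, and the count for hIRF8379-389 was 5 with the length trend subtracted. Averaged over days 0, 4 and 8, 9 of 10 members differed between hIRF8G388S and mock, 6 higher and 3 lower (69% of all genes, 41.7% higher and 27.3% lower), and 10 of 10 between hIRF8379-389 and mock, 6 higher and 4 lower (68.9%, 40.4% and 28.5%).

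The Ccr2 ligands and Ccl3, Ccl4 and Ccl5 were highest before RANKL in mock cells. From day 0 to day 4, 9 of 10 members passed, 8 lower and 1 higher, where 73.5% of all genes passed (22.6% lower and 50.9% higher, 2574 and 5789 genes, or 4055 and 4189 scaled). Ccl7 fell from 129 to 171 RPKM to 2.30 to 3.13 (-5.29 ± 0.14, adjusted p = 4.54e-21), Ccl4 from 81.2 to 157 to 5.98 to 9.37 (-3.84 ± 0.20) and Ccl2 from 174 to 215 to 15.5 to 20.3 (-3.46 ± 0.17). Ccl9, the osteoclast chemokine, rose from 159 to 185 RPKM to 265 to 303 (0.72 ± 0.10, adjusted p = 6.68e-07). Summed neutrophil markers in mock went from 966 to 1316 RPKM to 12.0 to 17.9 and osteoclast markers from 73.9 to 78.3 to 7813 to 8245, and their part was not tested. Between days 4 and 8, 6 of 10 passed (32% of all genes, 14.7% higher and 17.2% lower): Ccl2, Ccl7, Ccl12, Ccl6 and Ccl9 rose by 1.42- to 2.41-fold, and Ccl5 fell from 9.35 to 12.0 RPKM to 0.957 and 1.85.

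In mock macrophages, IFNg changed all 10 members, 6 higher and 4 lower, where 63.2% of all genes passed (18.9% higher and 44.2% lower, 2126 and 4972 genes, or 3093 and 3209 scaled). Ccl5 went from 13.3 and 16.1 RPKM to 2455 and 2139, a 147-fold rise (7.20 ± 1.02, limma adjusted p = 1.93e-06). Ccl2 went from 1.34 and 8.20 RPKM to 113 and 105 (4.56 ± 0.51, adjusted p = 6.17e-08), Ccl7 from 0.949 and 1.13 to 33.4 and 35.5 (4.12 ± 0.26) and Ccl12 from 0.112 and 0 to 25.96 and 21.8 (4.56 ± 0.57). Ccl8 and Ccl4 rose by 4.49- and 1.98-fold. The rodent chemokines Ccl6 and Ccl9 fell: Ccl6 went from 183 and 205 RPKM to 17.6 and 16.7 (-3.42 ± 0.22, adjusted p = 1.07e-11), and Ccl9 from 211 and 184 to 46.9 and 48.1 (-2.03 ± 0.16, adjusted p = 3.46e-10). Ccl3 fell by 1.93-fold and Ccl22 by 1.63-fold. The groups of 2 libraries did not overlap for any of the 10, but the share of all genes without overlap was not computed. Without the shallow library all 10 passed too, where 73.1% of all genes did.

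LPS then brought Ccl3 and Ccl4 to some of the highest levels in the table. After 1 h, Ccl3 was at 2308 and 2441 RPKM against 27.7 and 24.2 with IFNg alone, 88.3-fold higher (6.46 ± 0.13, limma adjusted p = 2.7e-21), and Ccl4 at 2865 and 2999 against 46.9 and 41.8, 64.8-fold higher (6.02 ± 0.16, limma adjusted p = 3.65e-19). With Ccl9 and Ccl7, 4 of 10 members rose (26.4% of all genes passed, 7.63% higher and 18.7% lower), and 6 of 10 passed without the shallow library, where 41.5% of all genes did. The mock 1 h libraries carry another column-name prefix than mock with IFNg alone, which cannot be told apart from LPS. With hIRF8379-389, where both conditions share a prefix, 7 of 10 members were higher at 1 h (37.5% of all genes, 8.61% higher; without the shallow library 8 passed, Ccl8 lower, and 54.3% of all genes), with Ccl3 86.0-fold and Ccl4 57.4-fold higher. Ccl12 there went from 18.6 and 19.3 RPKM to 121 and 124 (2.63 ± 0.57, adjusted p = 0.000802), while in mock it was at 25.96 and 21.8 against 27.6 and 32.8 (0.33 ± 0.57, adjusted p = 0.749).

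By 4 h of LPS, Ccl3 in mock had reached 8922 and 8170 RPKM, 3.60-fold above 1 h, and Ccl22 went from 0.321 and 0.351 to 4.50 and 4.25 RPKM (2.01 ± 0.18, limma adjusted p = 9.57e-10). Mock libraries at 1 h and 4 h share a prefix, and 5 of 10 members passed, 4 higher and Ccl6 lower, where 70.3% of all genes passed (12.6% higher and 57.8% lower, 1415 and 6490 genes, or 3947 and 3390 scaled). Without the shallow library 9 of 10 passed (79.6% of all genes), and 9 did under another scaling of the libraries. At 4 h, Ccl3, Ccl4 and Ccl5 took 5.03% to 6.11% of the summed RPKM in every construct group, against 0.0158% to 0.0281% in untreated cells apart from the shallow library. RPKM is a share of the library, so transcripts that take a larger share lower the values of the rest. The scaling moved the median of all genes by 0.58 on the log2 scale between 1 h and 4 h in mock. Over that step the 10 members went from a mean of 1.91% to 5.30% of the summed RPKM. Their part in the shift of the median was not tested.

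Between 4 h and 8 h, Ccl3 and Ccl4 fell while Ccl9 and Ccl7 rose in mock, 4 of 10 members (52.7% of all genes; 7 of 10 and 65.6% without the shallow library). Those mock groups carry different prefixes. In hIRF8WT, whose 4 h and 8 h libraries share a prefix, Ccl3 went from 10950 and 10280 RPKM to 2527 and 2275, 4.42-fold lower (-2.15 ± 0.13, adjusted p = 4.77e-12), and Ccl4 was 4.17-fold lower. Ccl7 fell as well there, 3 of 10 members in all, where 44.4% of all genes passed (9.07% lower), and without the shallow library Ccl2, Ccl6 and Ccl12 passed too, all lower, 6 of 10 in all (58.4% of all genes). Ccl3 in mock at 8 h was still at 5927 and 5793 RPKM, above every construct library at that time.

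**Figure D3:**
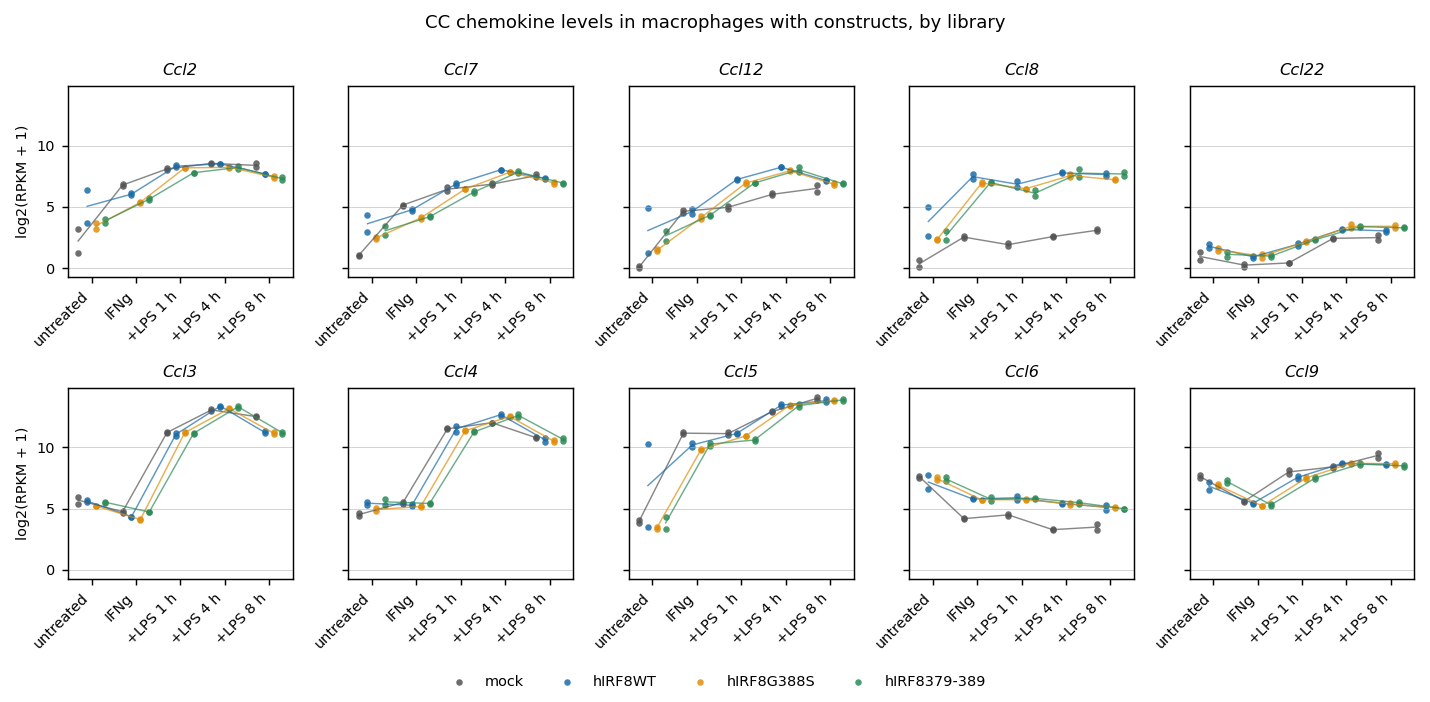
Level of each CC chemokine as log2(RPKM + 1) in macrophages untreated, with IFNg and with IFNg and LPS for 1, 4 and 8 h, 1 point per library coloured by construct, with lines through group means. Ccl8 and Ccl6 stay lower in mock than in the constructs once IFNg is given, with Ccl8 at 2.51 to 7.92 RPKM in mock and 56.97 to 265 with a construct.

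Ccl8, a monocyte chemoattractant, had the largest fold change between hIRF8WT and mock macrophages in each of the 5 conditions. With IFNg it was at 5.08 and 4.47 RPKM in mock and at 198 and 156 with hIRF8WT, 30.7-fold higher (4.94 ± 0.41, limma adjusted p = 6.1e-09). After 1 h of LPS it was at 3.03 and 2.51 RPKM against 137 and 95.1 (30.6-fold, adjusted p = 6.18e-09), and after 8 h at 7.08 and 7.92 against 218 and 179 (23.4-fold, adjusted p = 1.98e-08). After 4 h, where the prefixes differ, it was at 4.78 and 5.07 against 223 and 212 RPKM (36.8-fold). Every hIRF8WT library was above every mock library in these 4 conditions. Untreated, Ccl8 was at 0.546 and 0.0677 RPKM in mock and at 30.1 (shallow library) and 5.24 with hIRF8WT, and the difference without the shallow library was 2.28 ± 0.27 (limma adjusted p = 1.17e-06), with 1 hIRF8WT library and the spread taken from the other groups.

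Ccl6 showed a like order at lower amplitude once IFNg was given. Untreated, Ccl6 was at 183 and 205 RPKM in mock and at 96.4 (shallow library) and 212 with hIRF8WT, so the groups overlapped. With IFNg it was at 17.6 and 16.7 RPKM in mock and 52.7 and 55.9 with hIRF8WT (1.60 ± 0.22, limma adjusted p = 1.5e-05), and the difference was 1.40 ± 0.22 at 1 h, 2.15 ± 0.22 at 4 h and 1.61 ± 0.22 at 8 h. Ccl22 was higher with hIRF8WT in each of the 5 conditions, by 1.46- to 2.87-fold. Its call at 8 h was lost with the replicate block and in some fits that left out single libraries. Ccl12 was at 27.6 and 32.8 RPKM in mock and at 151 and 147 with hIRF8WT after 1 h of LPS (2.27 ± 0.57, adjusted p = 0.00945), against 25.96 and 21.8 and 27.1 and 20.8 with IFNg alone (0.00 ± 0.57). Ccl2 did not pass at IFNg or at any LPS time. Ccl3 was lower with hIRF8WT with IFNg (1.33-fold, adjusted p = 0.0406) and at 8 h (2.44-fold, adjusted p = 1.36e-07). With IFNg, the calls of Ccl3 and Ccl22 did not hold when single libraries were left out, which gave 2 or 3 passing members.

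The number of members that passed between hIRF8WT and mock was 4 of 10 with IFNg (12% of all genes), 4 at 1 h (10.3%), 6 at 4 h (33.1%) and 5 at 8 h (14.5%). Without the shallow library it was 5 (23.4% of all genes), 6 (19.9%), 8 (46.3%) and 6 (25.3%). In untreated cells it was 8 (46%) with that library and 7 (17%) without, where hIRF8WT is 1 library and other groups give the spread, and 0 when only the compared groups were fitted. Ccl5 in untreated cells rested on it: at 1255 RPKM there and 10.1 in its partner, against 13.3 and 16.1 in mock, the log2 fold change was 2.92 with it and -0.49 (adjusted p = 0.152) without. Summed neutrophil markers were at 790 to 955 RPKM in mock and 503 to 553 with hIRF8WT under IFNg, and their part was not tested.

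Whether the response to IFNg differed between hIRF8WT and mock was tested by an interaction, which passed for 6 of 10 members (25.5% of all genes), and also for 6 of 10 without the shallow library (13.3%). Ccl2, Ccl7 and Ccl12 rose less with hIRF8WT and Ccl6 fell less in both fits. Ccl4 passed in both fits too, as it rose in mock but not with hIRF8WT. Its hIRF8WT mean was 42.8 RPKM untreated, shallow library included, and 37.78 with IFNg. With only the compared groups fitted, 0 members passed, and the fit without the shallow library rests on 1 untreated hIRF8WT library. Ccl9 passed only with the shallow library and Ccl8 only without it, at 2.66 ± 0.35 (limma adjusted p = 1.06e-05) on the log2 scale in favour of hIRF8WT. The interaction with 4 h of LPS over IFNg passed for 4 members (Ccl12, Ccl7, Ccl4 and Ccl3; 24.4% of all genes), all with a larger rise in hIRF8WT, and for 7 without the shallow library (38.7%). With the length trend subtracted 0 members passed, and leaving out single libraries of those groups gave 3, without Ccl12. Its 4 h groups carry different prefixes, which cannot be told apart from the construct.

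In macrophages the altered forms were compared with hIRF8WT over all conditions. Averaged over the 5 conditions, 0 of 10 members passed between hIRF8G388S and hIRF8WT by limma with Benjamini-Hochberg adjustment (0.0445% of all genes), with 6 under an unadjusted p of 0.05, and 0 of 10 between hIRF8379-389 and hIRF8WT (0.427%), with 3 under it. Without the shallow library 1 member passed in each (0.241% and 1.29% of all genes): Ccl7 was lower by 0.42 ± 0.07 and 0.33 ± 0.07 on the log2 scale. With the partner of that library left out instead, so that the shallow one stood alone, more members passed in each. The share of all genes was not computed for that fit. Against mock, 6 of 10 members passed with hIRF8G388S (35.9% of all genes) and 7 with hIRF8379-389 (38.3%), and 8 and 9 without the shallow library (50.8% and 53.7%). Ccl8 led both, at 4.01 ± 0.18 and 4.14 ± 0.18, with values under IFNg of 127 and 117 RPKM for hIRF8G388S and 133 and 119 for hIRF8379-389. Ccl6, Ccl12 and Ccl22 were also higher with both forms, and Ccl3 and Ccl9 lower. Among the averaged conditions, hIRF8379-389 with IFNg carries another column-name prefix than mock, hIRF8WT and hIRF8G388S with IFNg. At 4 h of LPS, mock carries another prefix than the constructs. Construct and prefix cannot be told apart in those conditions.

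**Figure D4:**
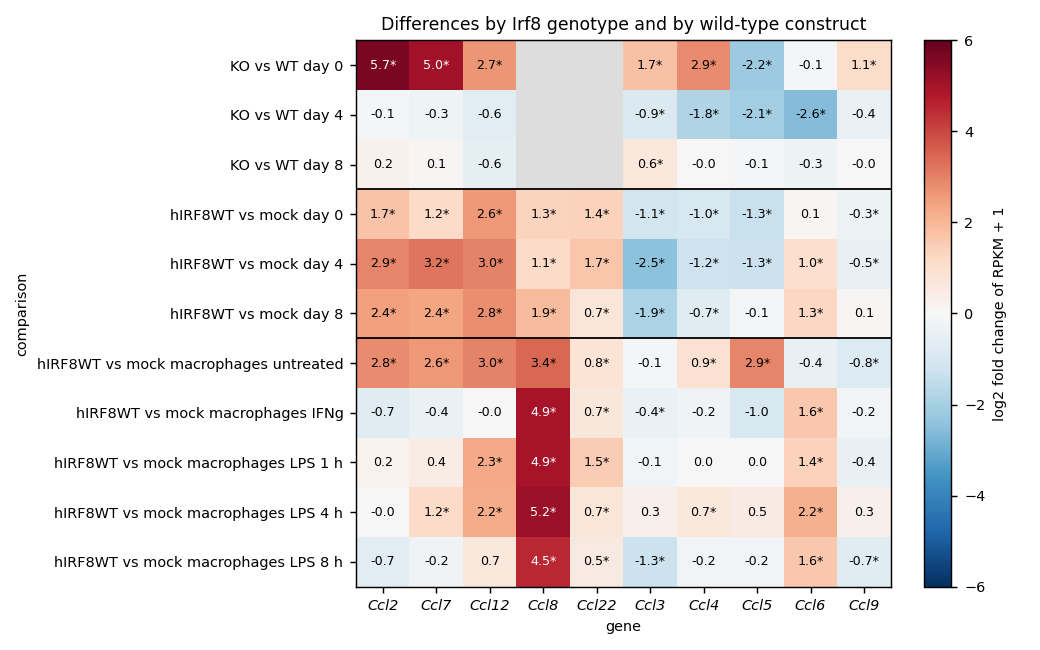
Log2 fold change of each CC chemokine (horizontal axis) in the comparisons by genotype and by hIRF8WT (vertical axis), coloured from lower (blue) to higher (red), grey where a gene was not tested, with an asterisk where the limma adjusted p was under 0.05. Ccl8 is high in the comparisons of hIRF8WT with mock, with 4.94 under IFNg in macrophages. Ccl3 is low in the hIRF8WT comparisons of the osteoclast cultures, with -2.47 at day 4. The day 4 hIRF8WT libraries carry a column-name prefix of their own, which cannot be told apart from the construct.

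Receptors were compared from a list of 14 CC and atypical chemokine receptors, of which 4 were tested in each osteoclast experiment and 5 in macrophages. At day 0, 1 was higher and 1 lower in IRF8KO. Ccr3 was higher by 0.69 ± 0.21 on the log2 scale and Ccrl2 lower by 1.56 ± 0.18. At day 4, Ccr1, the receptor of Ccl6 and Ccl9, was higher in IRF8KO by 0.74 (adjusted p = 0.0367). Ccr1 rose with RANKL in both genotypes, from means of 6.04 and 7.46 RPKM at day 0 to 90.9 and 152 at day 4, and Ccr2 fell from 15.8 and 13.6 to 1.57 and 0.899 RPKM. With hIRF8WT at day 0, Ccr1 and Ccr2 were higher than in mock by 2.04 and 1.97, and Ccrl2 was lower by 1.48. Of 10 other CC ligands, 3, 2 and 3 were tested in the 3 experiments. Of the 3 tested at day 0 in the IRF8WT and IRF8KO cells, 1 was higher and 1 lower in IRF8KO. Ccl24, an eosinophil attractant, was lower in IRF8KO at day 0, with means of 3.88 and 0.130 RPKM.

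Genes with the pattern most like each member were ranked by Pearson correlation of log2(RPKM + 1) means over the 38 groups, among 9984 or 9985 genes, as a description. The groups share libraries' experiment, prefix and treatment, so these values carry no p. Ccl2 was most like Ccl7 (r = 0.950), then Ccne1 (0.891) and Ccl12 (0.853), and Ccl12 was most like Ccl7 (0.917), so the levels of these 3 genes followed each other. Ccl8, which lies beside Ccl12, was most like Zyx (0.921), Pla2g16 (0.907) and Cept1 (0.903), and its correlation with Ccl2 was 0.363. Ccl3 was most like Ccl4 (0.976), Cd14 (0.973) and Bcl2a1b (0.954), and Ccl4 also like Plek (0.975) and Tnf (0.951). Ccl5 was most like Fpr2 (0.982), Rsad2 (0.981) and Isg15 (0.981). Ccl6 was most like Arl4c (0.880), Tmem37 (0.835) and Pf4 (0.825), Ccl9 like Prag1 (0.872), and Ccl22 like Ccl12 (0.806). Ccl6 and Ccl9 had an r of -0.241 with each other although their genes are adjacent.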

How the data were processed

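RNA-seq reads were aligned with TopHat2 2.1.0 and handled with CASAVA 1.8.4, bcl2fastq 2.17.1, Partek and deepTools, per the submitters' processing notes, which give no role or order here. The deposited table holds RPKM values per gene and library, as named per the file headers, and no counts, so depth is known only as alignments per library. RPKM depends on the rest of the library, and the authors' gene lengths were not used here, as no source gives them. The members and gene lists were chosen with earlier results of these data known.

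From the table, log2(RPKM + 1) was fitted in each of the 3 experiments with limma 3.58.1 (trend) in R 4.3.3, with 1 mean per group, for genes at 1 RPKM or more in at least 2 libraries (11530, 11374 and 11237 genes). Tests were two-sided, with Benjamini-Hochberg adjustment over all genes and a threshold of 0.05. Tables were made with Python 3.11.15 and pandas 2.3.3. The fit was tested on simulated data. Some genes of the receptor and macrophage marker lists are not reported here, and the counts and sums leave them out. The genes named are all members, the 3 most alike for each, and up to 4 genes of a pathway list with the smallest adjusted p. Positions are GENCODE M21 on mm10. Alternatives changed the pseudocount (0.1), the filter, the scaling, the gene length trend (from annotation lengths), the libraries fitted and the replicate block. The length trend, the fit without the shallow library, the construct comparisons at day 4 and the within-prefix contrasts were added after seeing the data. Where 3 numbers were shared, deviations of same-numbered libraries correlated above 0.1 in all pairs only for hIRF8G388S with hIRF8WT at day 0 (0.143 to 0.187) and hIRF8379-389 with mock at day 4 (0.187 to 0.347). Where 2 numbers were shared, the correlation was highest for IRF8KO with IRF8WT at day 4 (0.871 to 0.899). The main fit did not pair libraries.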

Additional observations from a re-analysis of the deposited data

Results flagged for a closer look

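The change from day 0 to day 4 of RANKL differed between IRF8KO and IRF8WT for 7 members by an interaction term in limma, where 27.6% of all genes passed. On the log2 scale it was lower in IRF8KO by -5.72 for Ccl2, -5.30 for Ccl7, -4.65 for Ccl4, -3.29 for Ccl12, -2.62 for Ccl3, -2.48 for Ccl6 and -1.48 for Ccl9.

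The response of macrophages to IFNg differed between hIRF8WT and mock for 6 members, where 25.5% of all genes passed, and for 0 with only the compared groups fitted. The difference was -3.56 for Ccl2, -2.99 for Ccl12, -2.99 for Ccl7, -1.16 for Ccl4, 2.04 for Ccl6 and 0.64 for Ccl9. Without the shallow hIRF8WT untreated library these were -2.21, -1.16, -2.27, -1.04, 1.47 and 0.30, and Ccl9 no longer passed (adjusted p = 0.350).

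The response to 4 h of LPS over IFNg differed between hIRF8WT and mock for 4 members, where 24.4% of all genes passed. The difference was 2.21 for Ccl12, 1.56 for Ccl7, 0.88 for Ccl4 and 0.72 for Ccl3. With the length trend subtracted 0 members passed, and with only the compared groups fitted 8 did. The 4 h groups carry different column-name prefixes, and construct and prefix cannot be told apart there.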

How the results depend on the processing

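Numbers are members passing, with the reported number in brackets, and the cause of each move was not tested. Apart from the scaling and the fit without the shallow library, the share of all genes was not computed for these alternatives. Their counts therefore do not tell the members from other genes. With only the compared groups fitted: 1 (4) for IRF8KO against IRF8WT at day 4, 0 (2) and 3 (0) for hIRF8G388S against hIRF8WT at days 0 and 8, 4 (0) for hIRF8379-389 against hIRF8WT at day 8, 7 (4), 10 (5) and 7 (4) for the successive LPS steps in mock, 0 (8) for hIRF8WT against mock untreated, and 0 (6) and 8 (4) for the IFNg and LPS interactions. With the length trend subtracted: 4 (1) for IRF8KO against IRF8WT at day 8, 7 (2) for IRF8WT day 4 against day 0, 1 (2) for hIRF8G388S against hIRF8WT at day 0, 5 (10) for hIRF8379-389 against hIRF8WT at day 4, and 0 (4) for the LPS interaction. A pseudocount of 0.1 and no filter each gave 2 (1) for IRF8KO against IRF8WT at day 8 and 1 (2) for hIRF8G388S against hIRF8WT at day 0, where scaling also gave 1. Scaling gave 9 (5) for mock LPS 4 h against 1 h.

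Without the shallow library the numbers were 9 (5) and 7 (4) for mock LPS 4 h against 1 h and 8 h against 4 h, 7 (4) for the LPS interaction, and 1 (0) for each altered form against hIRF8WT in macrophages. Ccl5 in hIRF8WT against mock untreated turned to -0.49 without it and was 6.33 without its partner, against 2.92. Leaving out single libraries gave 0 to 1 (1) for IRF8KO against IRF8WT at day 8, 1 to 2 (2) for IRF8WT day 4 against day 0, 0 to 4 (2) and 0 to 1 (0) for hIRF8G388S and hIRF8379-389 against hIRF8WT at day 0, 4 to 6 (6) for mock day 8 against day 4, 2 to 3 (4) for hIRF8WT against mock with IFNg, 0 to 7 (0) and 0 to 5 (0) for the altered forms in macrophages, and 3 (4) for the LPS interaction.

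With the replicate block, 7 members passed for IRF8KO against IRF8WT at day 0, 4 at day 4 and 10 for hIRF8WT against mock at day 4, as reported. The block ended 1 of 191 member calls, Ccl22 in hIRF8WT against mock at 8 h of LPS. Depth limits the shallow library, where 1711 genes are listed at 0.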
